A study of Caenorhabditis elegans with 12 samples.

Results

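Transcripts of 10 genes of the endoplasmic reticulum (ER) were followed in Caenorhabditis elegans in which the mitochondrial ATP synthase subunit atp-2, the splicing factor prp-19, or both were targeted by RNAi. The genes were taken by symbol from a deposited table of 45132 genes. They are the chaperones hsp-3, hsp-4, enpl-1 and crt-1, the co-chaperones dnj-7 and dnj-27, the stress sensors ire-1, pek-1 and atf-6, and the transcription factor gene xbp-1. All 10 were found, and all 10 passed the filter on low counts with 12850 genes in all. The question was whether the others share the pattern of hsp-4, which was known from earlier work on these data to be lower after atp-2 RNAi on control bacteria and higher after it on prp-19 RNAi bacteria. Values of hsp-4 for that pattern are therefore given as a description, without a test. PolyA RNA of whole worms at day 1 of adulthood was sequenced in 4 groups of 3 libraries, called here prp-19-labelled/atp-2 worms (prp-19 RNAi and atp-2 RNAi), prp-19-labelled worms (prp-19 RNAi alone), control/atp-2 worms (the empty vector L4440 and atp-2 RNAi) and control worms (the empty vector alone). All carried glp-4(bn2), a temperature-sensitive allele that blocks germline proliferation when worms are grown warm. The sources used here do not give the culture temperature or the timing of atp-2 RNAi.

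Secretory and membrane proteins enter the ER unfolded, and chaperones of its lumen bind them until they are folded and glycosylated. When unfolded proteins accumulate, IRE-1, PEK-1 (the worm PERK) and ATF-6 in the ER membrane start the unfolded protein response. Active IRE-1 splices the mRNA of xbp-1 into a form that encodes a transcription factor, and this factor raises chaperone genes, of which hsp-4 is the usual reporter in worms. Gene counts add up spliced and unspliced xbp-1 mRNA, so they carry no information on that step.

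Library totals were 6731808 to 8802767 counts, and levels are in TMM-scaled CPM (counts scaled to a common library size). The mRNA of atp-2 was lower in all 3 libraries with atp-2 RNAi than in all 3 without it, with log2 fold changes of -1.01 under the prp-19 label and -2.60 under control RNAi. The mRNA of prp-19 went against its label: it had 84.2, 38.0 and 41.0 CPM in prp-19-labelled worms, against 27.1, 24.3 and 28.1 CPM in control worms. It had 40.9, 29.2 and 18.1 CPM in prp-19-labelled/atp-2 worms, against 27.95, 27.9 and 27.6 CPM in control/atp-2 worms. Neither prp-19-labelled group was thus lower than its control, and group names follow the labels. Replicate 3 of the prp-19-labelled worms stood apart, with a chi-square per degree of freedom of 43.0 and 23.8 against the other 2, which differed from each other by 9.34. The 6 vitellogenin genes took 17.7% of its counts, against 6.85% and 10.4% in those 2; they took 12.3% to 14.01% in prp-19-labelled/atp-2, 11.7% to 12.5% in control/atp-2 and 21.9% to 25.7% in control worms. Fold changes are relative to the bulk of genes, since TMM factors set the scale. With library totals instead, the all-gene median of the log2 fold change was 0.29 for atp-2 RNAi under control RNAi, 0.54 for the prp-19 contrast without atp-2 RNAi, 0.16 for the one with it, and -0.38 for the interaction, and called genes then split into 4392 higher and 991 lower, 7374 and 1591, 4106 and 2502, and 499 and 3504, beside near-even splits with TMM. The labels do not say whether replicates were separate cultures, so p-values measure the spread between these libraries. In whole worms, fewer cells of a type and less RNA per cell cannot be told apart.

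After atp-2 RNAi under control RNAi, 4 of the 9 members other than hsp-4 fell, all of them chaperones or co-chaperones. They were hsp-3, enpl-1, crt-1 and dnj-7, with between 22.6% and 35.3% less mRNA, beside 33.7% less for hsp-4. Over all genes tested 34.1% were called in this comparison and 17.1% were called lower. Under the prp-19 label edgeR called 0 of these 9, also 0 at an unadjusted p under 0.05 and 0 with DESeq2, where 9.77% of all genes were called, 5.06% higher and 4.72% lower; hsp-4, chosen for this response, was 44.3% higher. With all 12 libraries none of the 9 thus had the opposite calls of hsp-4, which 73 of all genes tested (0.568%) showed. A gene was called at an edgeR quasi-likelihood p under 0.05 after Benjamini-Hochberg adjustment over all genes tested.

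**Figure D1:**
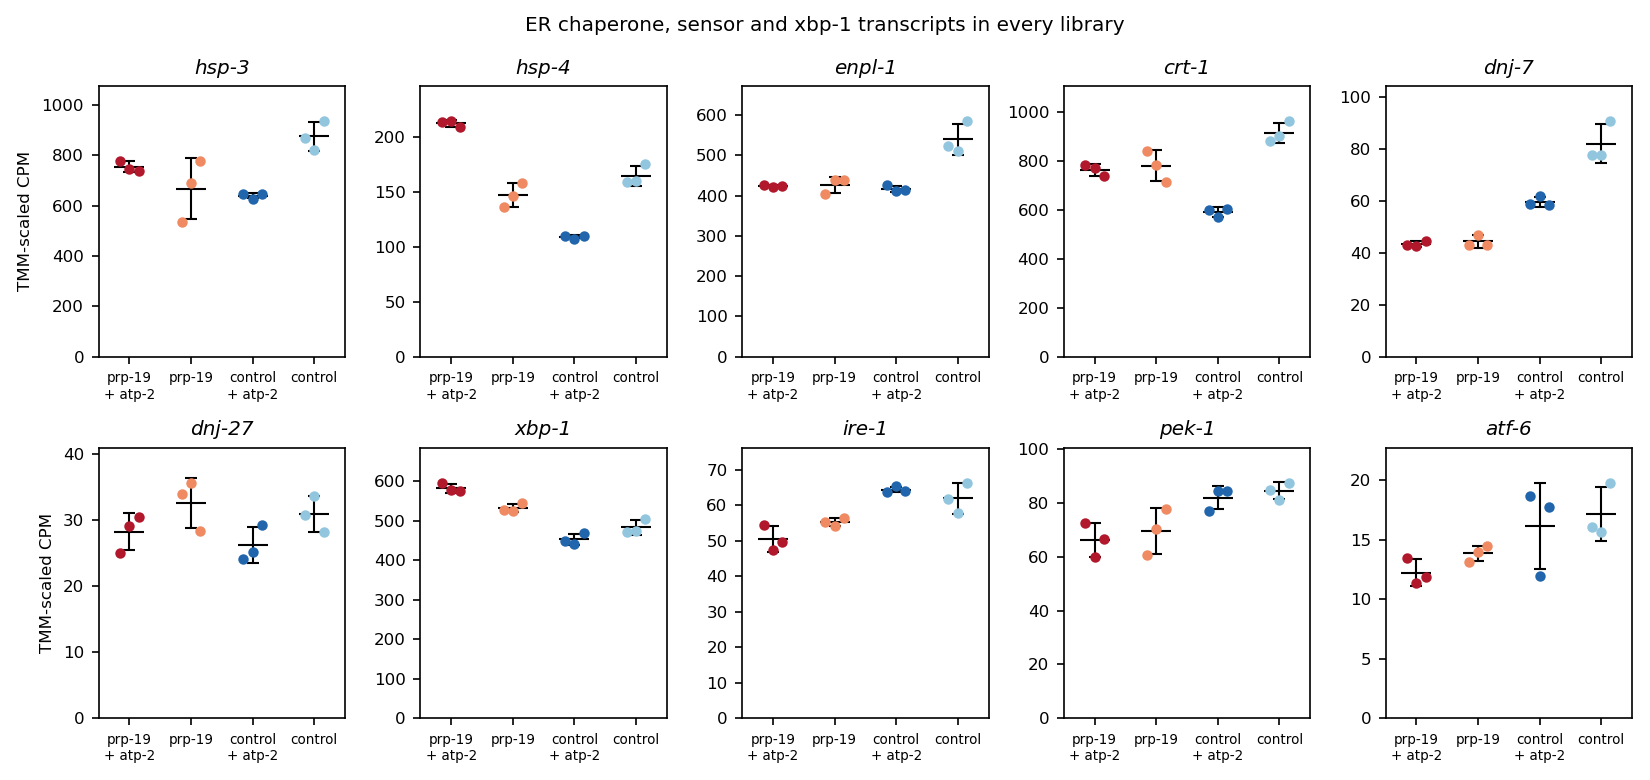
Levels of the 10 transcripts in TMM-scaled CPM (vertical axes, each from 0) in the 4 groups; each dot is a library, the horizontal line the mean and the bar 1 SD over 3 libraries. For hsp-4 prp-19-labelled/atp-2 worms (209 to 214 CPM) lie above all others and control/atp-2 worms (108 to 110.3 CPM) lie below all others, while enpl-1 and dnj-7 are level between the groups under the prp-19 label.

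The genes hsp-3 and hsp-4 encode the worm's BiP proteins, the HSP70 chaperones of the ER lumen. hsp-4 lies on chromosome II (7350112 to 7352645, minus strand, WBcel235) and has up to 7 exons. Its level was 214, 214 and 209 CPM in prp-19-labelled/atp-2 worms, against 136, 147 and 158 CPM in prp-19-labelled worms. It was 110.3, 108 and 110.3 CPM in control/atp-2 worms, against 159, 160.1 and 175 CPM in control worms. In neither setting did the groups overlap, and the 2 groups given atp-2 RNAi were the highest and the lowest of the 4. The log2 fold change of atp-2 RNAi was 0.53 (SE 0.0713) under the prp-19 label and -0.59 (SE 0.0730) under control RNAi, and their difference, the interaction, was 1.12 (SE 0.102).

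hsp-3 lies on chromosome X (6089028 to 6092124, minus strand, WBcel235), with up to 5 exons. It had 779, 746 and 738 CPM in prp-19-labelled/atp-2 worms, against 536, 692 and 777 CPM in prp-19-labelled worms. In control/atp-2 worms it had 648, 628 and 645 CPM, against 869, 822 and 935 CPM in control worms. The control groups were far apart, whereas the groups under the prp-19 label overlapped, with prp-19-labelled replicate 3 as high as the libraries with atp-2 RNAi. hsp-3 fell by 0.45 on the log2 scale under control RNAi (SE 0.0991, edgeR adjusted p = 0.0015). Its change under the prp-19 label was 0.18 (SE 0.0988, 95% interval -0.03 to 0.38, edgeR adjusted p = 0.3). The interaction was 0.63 (SE 0.140, edgeR adjusted p = 0.00371). Without prp-19-labelled replicate 3 the change there was 0.31 (edgeR adjusted p = 0.00429), and hsp-3 then showed the same opposite responses as hsp-4. Of 12 fits with a library left out, this was the only 1 that called it. The lowest value, 0.05, came without prp-19-labelled replicate 1, the library with 536 CPM. Without prp-19-labelled replicate 3, 22% of all genes were called in this comparison, against 9.77% with all libraries. The share of all genes with opposite calls was not counted in that fit. hsp-3 and hsp-4 are close paralogs, and the sources used here do not say how reads matching both were counted, so the split of reads between the pair is uncertain.

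enpl-1 encodes the HSP90 chaperone of the ER (the worm GRP94), on chromosome IV (11119298 to 11123155, plus strand). Its level was 425, 421 and 423 CPM in prp-19-labelled/atp-2 worms, against 403, 438 and 438 CPM in prp-19-labelled worms. It was 426, 411 and 415 CPM in control/atp-2 worms, against 524, 511 and 584 CPM in control worms. The control group alone was high, and the other 9 libraries lay within 403 to 438 CPM. enpl-1 fell by 0.37 under control RNAi (SE 0.0695, edgeR adjusted p = 0.000329), its change under the prp-19 label was -0.01 (SE 0.0693, 95% interval -0.16 to 0.13, edgeR adjusted p = 0.95), and the interaction was 0.36 (SE 0.0982, edgeR adjusted p = 0.0142).

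crt-1 encodes calreticulin, a calcium-binding chaperone for glycoproteins, on chromosome V (6098992 to 6100542, minus strand). It had 783, 774 and 738 CPM in prp-19-labelled/atp-2 worms, against 843, 787 and 715 CPM in prp-19-labelled worms. It had 602, 571 and 606 CPM in control/atp-2 worms, against 883, 904 and 964 CPM in control worms. Control worms stood above and control/atp-2 worms below all others, and the groups under the prp-19 label overlapped in between. The fall of 0.63 under control RNAi (SE 0.0727, edgeR adjusted p = 1.35e-06) was the most negative value of the members. Under the prp-19 label the change was -0.03 (SE 0.0722, 95% interval -0.18 to 0.12, edgeR adjusted p = 0.847), and the interaction was 0.60 (SE 0.102, edgeR adjusted p = 0.000367). On the opposite strand crt-1 shares 92 exon bases with smut-1, which had 12.7 to 21.5 CPM over all libraries, and the sources used here do not say whether counting used the strand.

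The DnaJ proteins dnj-7 and dnj-27 are partners of BiP. dnj-7 is the worm P58IPK, a co-chaperone that in mammals also acts on PERK, on chromosome X (7194564 to 7198291, plus strand). Its level was 43.1, 42.6 and 44.7 CPM in prp-19-labelled/atp-2 worms, against 43.1, 47.1 and 43.0 CPM in prp-19-labelled worms. It was 58.9, 61.9 and 58.4 CPM in control/atp-2 worms, against 77.8, 77.7 and 90.6 CPM in control worms. Every prp-19-labelled library was below every control library, with or without atp-2 RNAi. dnj-7 fell by 0.46 under control RNAi (SE 0.0784, edgeR adjusted p = 0.000131), its change under the prp-19 label was -0.03 (SE 0.0810, 95% interval -0.20 to 0.14, edgeR adjusted p = 0.872), and the interaction was 0.43 (SE 0.113, edgeR adjusted p = 0.0113).

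dnj-27, on chromosome I, encodes the worm ERdj5, a reductase with thioredoxin domains that in mammals serves ER-associated degradation. It had 25.1, 29.2 and 30.5 CPM in prp-19-labelled/atp-2 worms, against 34.0, 35.7 and 28.4 CPM in prp-19-labelled worms, and 24.17, 25.2 and 29.3 CPM in control/atp-2 worms, against 30.8, 33.7 and 28.3 CPM in control worms. The groups overlapped in both settings. The log2 values were -0.21 (SE 0.109, edgeR adjusted p = 0.246) and -0.24 (SE 0.115, edgeR adjusted p = 0.117), negative under the prp-19 label and under control RNAi alike, with an interaction of 0.03 (95% interval -0.30 to 0.36, edgeR adjusted p = 0.931). Without prp-19-labelled replicate 3 both were called, at -0.29 and -0.26 (edgeR adjusted p = 0.0442 and 0.0491).

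xbp-1 lies on chromosome III (4193809 to 4195358, plus strand). Its level was 597, 578 and 576 CPM in prp-19-labelled/atp-2 worms, against 529, 526 and 544 CPM in prp-19-labelled worms. It was 449.9, 442 and 469 CPM in control/atp-2 worms, against 472, 474 and 505 CPM in control worms. In both settings the groups did not overlap, and they lay on opposite sides, as for hsp-4, but by far less: 0.13 (SE 0.0640, edgeR adjusted p = 0.227) under the prp-19 label and -0.09 (SE 0.0643, edgeR adjusted p = 0.299) under control RNAi. Neither was called, nor was the interaction of 0.22 (SE 0.0907, 95% interval 0.03 to 0.41, edgeR adjusted p = 0.0978). The interaction was called with DESeq2 (0.24, adjusted p = 0.029) and without prp-19-labelled replicate 3 (0.26, edgeR adjusted p = 0.0155), and with library totals it was -0.13 (edgeR adjusted p = 0.369).

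For the sensor genes no atp-2 effect was called in either setting. ire-1, the kinase and RNase (chromosome II, 8112243 to 8124910, minus strand), had 54.4, 47.3 and 49.7 CPM in prp-19-labelled/atp-2 worms, against 55.3, 54.1 and 56.4 CPM in prp-19-labelled worms. It had 63.8, 65.3 and 64.01 CPM in control/atp-2 worms, against 61.7, 57.7 and 66.3 CPM in control worms. The groups overlapped in both settings; the log2 values were -0.13 (SE 0.0768, edgeR adjusted p = 0.324) under the prp-19 label and 0.06 (SE 0.0773, edgeR adjusted p = 0.616) under control RNAi, the signs opposite to those of hsp-4, and the interaction was -0.19 (SE 0.109, 95% interval -0.42 to 0.04, edgeR adjusted p = 0.253). With library totals ire-1 was called, at 0.33 for atp-2 RNAi under control RNAi (edgeR adjusted p = 0.00984) and at -0.53 for the interaction (edgeR adjusted p = 0.00598), beside medians of 0.29 and -0.38 over all genes.

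pek-1, the kinase that phosphorylates eIF2alpha (chromosome X, 11410176 to 11414887, minus strand), had 72.5, 59.8 and 66.5 CPM in prp-19-labelled/atp-2 worms, against 60.6, 70.3 and 77.7 CPM in prp-19-labelled worms. It had 77.0, 84.4 and 84.3 CPM in control/atp-2 worms, against 84.8, 81.1 and 87.5 CPM in control worms. The groups overlapped in both settings. The atp-2 values of pek-1 were -0.07 (SE 0.0921, edgeR adjusted p = 0.716) under the prp-19 label and -0.04 (SE 0.0922, edgeR adjusted p = 0.751) under control RNAi, and the interaction was -0.02 (95% interval -0.30 to 0.25, edgeR adjusted p = 0.933). atf-6, a transcription factor that is cut from the membrane under stress (chromosome X, 12480948 to 12484904, plus strand), had the fewest reads, 87 to 163 a library. It had 13.5, 11.3 and 11.9 CPM in prp-19-labelled/atp-2 worms, against 13.2, 13.9 and 14.5 CPM in prp-19-labelled worms, and 18.7, 11.99 and 17.7 CPM in control/atp-2 worms, against 16.1, 15.6 and 19.8 CPM in control worms. These groups overlapped too, and its interaction of -0.09 had a 95% interval of -0.53 to 0.36 (edgeR adjusted p = 0.83), the widest of the members.

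The test of the difference itself gave a positive interaction for 4 of the 9 members other than hsp-4 (hsp-3, enpl-1, crt-1 and dnj-7) and a negative one for 0; over all genes tested 19.3% were called for the interaction, 10.1% with a positive and 9.14% with a negative value. These 4 were the members that fell after atp-2 RNAi under control RNAi. Both comparisons share those libraries, so they are not independent. hsp-4, whose interaction is given without a test, was lower in one setting and higher in the other, while enpl-1, crt-1 and dnj-7 were lower under control RNAi and within 0.04 of 0 under the prp-19 label. The median interaction of the 10 members was 0.29, and of the 9 other than hsp-4 it was 0.22, beside -0.03 over all genes tested. The 4 values stayed positive with library totals (0.30 for hsp-3, 0.24 for crt-1, 0.08 for dnj-7 and 0.01 for enpl-1, beside 0.78 for hsp-4), where the median of all genes was -0.38 and hsp-3 alone of the 4 was called; ire-1 and pek-1 were then called with negative values (-0.53 and -0.36). In the same way, the 4 atp-2 effects under control RNAi stayed negative with library totals, and that of crt-1 stayed called, beside ire-1, which was then called higher.

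**Figure D2:**
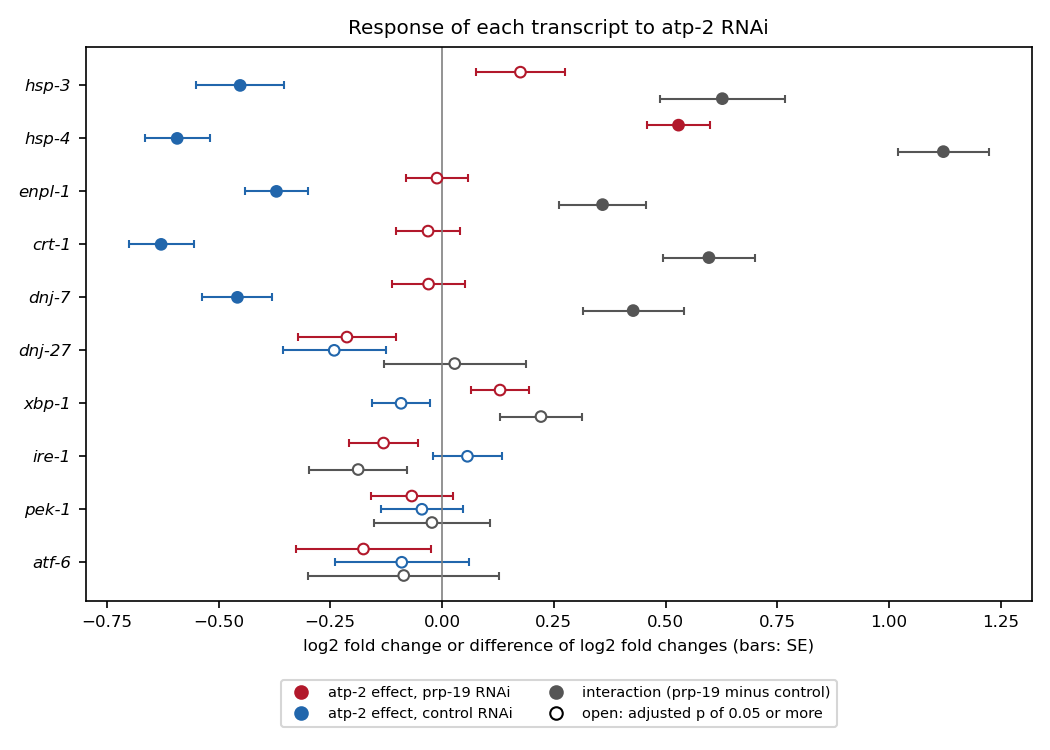
Log2 fold change after atp-2 RNAi of each transcript under the prp-19 label (red) and under control RNAi (blue), and the difference between them, the interaction (grey); bars are 1 SE, and open symbols have an adjusted p of 0.05 or more. Under control RNAi hsp-3, hsp-4, enpl-1, crt-1 and dnj-7 lie between -0.63 and -0.37 as filled symbols. Under the prp-19 label hsp-4 at 0.53 is the single filled one. hsp-4 was chosen for these responses, so its symbols are a description and not a test.

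The same libraries were compared across the prp-19 label. Without atp-2 RNAi, 5 members were lower in prp-19-labelled worms than in control worms, and 0 were higher, where 58.5% of all genes were called and 28.5% were called lower. dnj-7 fell most, by 0.88 (SE 0.0798, edgeR adjusted p = 1.72e-08), to 44.4 ± 2.32 CPM in prp-19-labelled worms, against 82.1 ± 7.42 CPM in control worms (SD, n = 3 each). hsp-3 fell by 0.39 (SE 0.0991, edgeR adjusted p = 0.00253) and enpl-1 by 0.34 (SE 0.0695, edgeR adjusted p = 0.000371). pek-1 fell by 0.28 (SE 0.0928, edgeR adjusted p = 0.0143) and crt-1 by 0.23 (SE 0.0723, edgeR adjusted p = 0.0108). Of these, the direction of dnj-7 held under every scaling tried, and with library totals the values of hsp-3, enpl-1, pek-1 and crt-1 turned to 0.08, 0.14, 0.19 and 0.26, beside a median of 0.54 over all genes. hsp-4 had a value of -0.16 and ire-1 one of -0.16 (edgeR adjusted p = 0.0800), which library totals also turned, to 0.31 and 0.32. Because hsp-4 was chosen for atp-2 responses that use these same groups, its values in this contrast are a description without a test. With library totals 5 members, hsp-4, xbp-1, ire-1, crt-1 and dnj-27, were called higher and dnj-7 alone lower. Over all genes 69.8% were then called, 7374 higher and 1591 lower.

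The number of calls moved with the fit. With RLE factors 7 members were lower, ire-1 (-0.20, edgeR adjusted p = 0.0362) and hsp-4 (-0.20, a description) added. With DESeq2 6 were lower, hsp-4 added (-0.20, a description). Over all genes 58.3% were called with RLE factors, 3857 of 12850 lower, and 53.1% with DESeq2, 3592 lower. Single libraries moved the number of members called too. Without prp-19-labelled replicate 3, ire-1 was called at -0.20 (edgeR adjusted p = 0.0383), and the value of hsp-4 was -0.25. ire-1 was also called without control replicate 2 (-0.22, edgeR adjusted p = 0.0383), and atf-6 without control/atp-2 replicate 2 (-0.32, edgeR adjusted p = 0.0376), against -0.31 (edgeR adjusted p = 0.0899) with all libraries. In turn, pek-1 was not called without prp-19-labelled replicate 1 (-0.21, edgeR adjusted p = 0.0561).

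With atp-2 RNAi in both groups, 3 members, 2 of them other than hsp-4, were higher and 4 lower in prp-19-labelled/atp-2 than in control/atp-2 worms. Over all genes 53.0% were called, 26.5% in each direction. hsp-4 rose by 0.96 (SE 0.0723), to 212 ± 2.96 CPM in prp-19-labelled/atp-2 worms, against 109 ± 1.58 CPM in control/atp-2 worms (SD, n = 3 each). It was chosen for its atp-2 responses, which use these same groups, so this value is a description without a test. crt-1 rose by 0.37 (SE 0.0724, edgeR adjusted p = 0.000283) and xbp-1 by 0.36 (SE 0.0642, edgeR adjusted p = 9.45e-05). dnj-7 fell by 0.46 (SE 0.0797, edgeR adjusted p = 7.98e-05), and all 3 sensor genes fell: ire-1 by 0.35 (edgeR adjusted p = 0.000721), pek-1 by 0.30 (edgeR adjusted p = 0.00903) and atf-6 by 0.39 (edgeR adjusted p = 0.0328). The effector gene xbp-1 and its sensor ire-1 thus lay on opposite sides, xbp-1 at 583 ± 11.5 CPM in prp-19-labelled/atp-2 worms, against 454 ± 14.1 CPM in control/atp-2 worms, and ire-1 at 50.5 ± 3.58 CPM, against 64.4 ± 0.809 CPM (SD, n = 3 each). No direction of these 7 turned under another scaling. With library totals 4 members were called higher and 1, dnj-7, lower, where 51.4% of all genes were called, 4106 higher and 2502 lower.

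**Figure D3:**
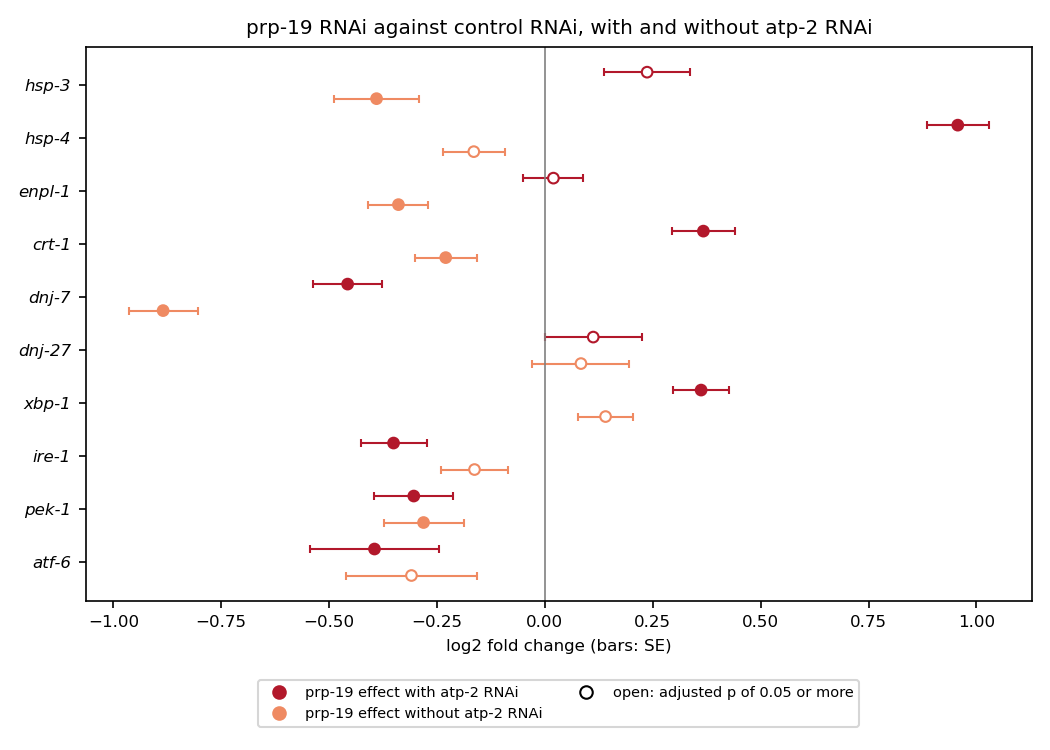
Log2 fold change of each transcript for the prp-19 label over control RNAi, with atp-2 RNAi in both groups (red) and without it (orange); bars are 1 SE, and open symbols have an adjusted p of 0.05 or more. hsp-4 (0.96, a description, since it was chosen for responses in these groups), crt-1 (0.37) and xbp-1 (0.36) are the filled symbols on the right. Without atp-2 RNAi the filled symbols all lie on the left, and of these hsp-3, enpl-1, pek-1 and crt-1 move to the right of 0 with library totals.

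The calls for atf-6 and pek-1 were the least secure of the 7. atf-6 was not called without control/atp-2 replicate 1 or 3 (edgeR adjusted p = 0.185 and 0.118) or without prp-19-labelled/atp-2 replicate 2 or 3 (edgeR adjusted p = 0.103 and 0.0886), and pek-1 was not called without that replicate 2 (edgeR adjusted p = 0.0578). hsp-3 just missed, at 0.24 (SE 0.0989, 95% interval 0.03 to 0.44, edgeR adjusted p = 0.0519), and was called without replicate 1 or 3 of prp-19-labelled worms (edgeR adjusted p = 0.00527 and 0.00513).

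Across the pair of prp-19 comparisons, which share no library, 40.6% of all genes were called in both, and dnj-7 and pek-1 were among the 19.3% called lower in both. crt-1 was called lower without atp-2 RNAi and higher with it, a pattern of opposite calls that 1.83% of all genes tested showed. The first of these calls was not made when the 6 libraries were compared alone (-0.21, edgeR adjusted p = 0.0844), and its direction turned with library totals, as given above. For hsp-4 the value was -0.16 without and 0.96 with atp-2 RNAi.

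Levels of different genes were compared per length, as CPM per kilobase of annotated exon, here called RPKM. In all 4 groups the order of the mean levels was crt-1, xbp-1, hsp-3, enpl-1, hsp-4, dnj-7, pek-1, ire-1, dnj-27 and atf-6. The top of the order was 546 ± 17.0 RPKM for crt-1 in prp-19-labelled/atp-2 worms, against 654 ± 30.0 RPKM in control worms, and its bottom was 5.10 ± 0.468 RPKM for atf-6, against 7.15 ± 0.949 RPKM in the same groups (SD, n = 3 each). Neighbours that were not separated were xbp-1 and hsp-3 in control worms, at 326 to 349.6 and 308 to 351 RPKM, and pek-1 and ire-1 in prp-19-labelled worms, at 16.3 to 21.0 and 15.9 to 16.6 RPKM. All other neighbours in the order were apart in each group.

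The balance of the BiP pair is a ratio within each library and does not depend on scaling. The level of hsp-3 was 3.05, 2.92 and 2.96 times that of hsp-4 in prp-19-labelled/atp-2 worms, against 3.29, 3.95 and 4.11 times in prp-19-labelled worms. It was 4.92, 4.89 and 4.89 times that of hsp-4 in control/atp-2 worms, against 4.57, 4.30 and 4.46 times in control worms. The ratio was lower with atp-2 RNAi under the prp-19 label and higher with it under control RNAi, without overlap in either setting. Since hsp-4 was chosen for its opposite atp-2 responses, the direction of this ratio follows in part from that choice and is a description. In every library hsp-3 was the more abundant BiP transcript. hsp-4 made up 25.2% ± 0.445 of the summed BiP level in prp-19-labelled/atp-2 worms, 21.0% ± 2.01 in prp-19-labelled worms, 16.9% ± 0.0424 in control/atp-2 worms and 18.4% ± 0.460 in control worms (SD, n = 3 each). The sum itself was 378 ± 9.10 RPKM in prp-19-labelled/atp-2 worms, against 317 ± 50.8 RPKM in prp-19-labelled worms, and 289 ± 4.68 RPKM in control/atp-2 worms, against 402 ± 25.01 RPKM in control worms.

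The chaperones were also set against xbp-1 within each library. The level of crt-1 over that of xbp-1 was 1.35 ± 0.0296 in prp-19-labelled/atp-2 worms, 1.51 ± 0.146 in prp-19-labelled worms, 1.35 ± 0.0290 in control/atp-2 worms and 1.96 ± 0.0213 in control worms (SD, n = 3 each). Control worms were highest, and enpl-1, hsp-3 and dnj-7 also had their highest ratio there. The ratio of hsp-4 to xbp-1 ordered the groups otherwise, with 0.236 ± 0.00420 in prp-19-labelled/atp-2 worms and 0.179 ± 0.0108 in prp-19-labelled worms, and with 0.156 ± 0.00360 in control/atp-2 worms and 0.221 ± 0.00340 in control worms. hsp-4 was thus the one BiP gene whose ratio to xbp-1 was highest where both RNAi treatments were given. This too is a description, since hsp-4 was chosen for its atp-2 responses in these groups.

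**Figure D4:**
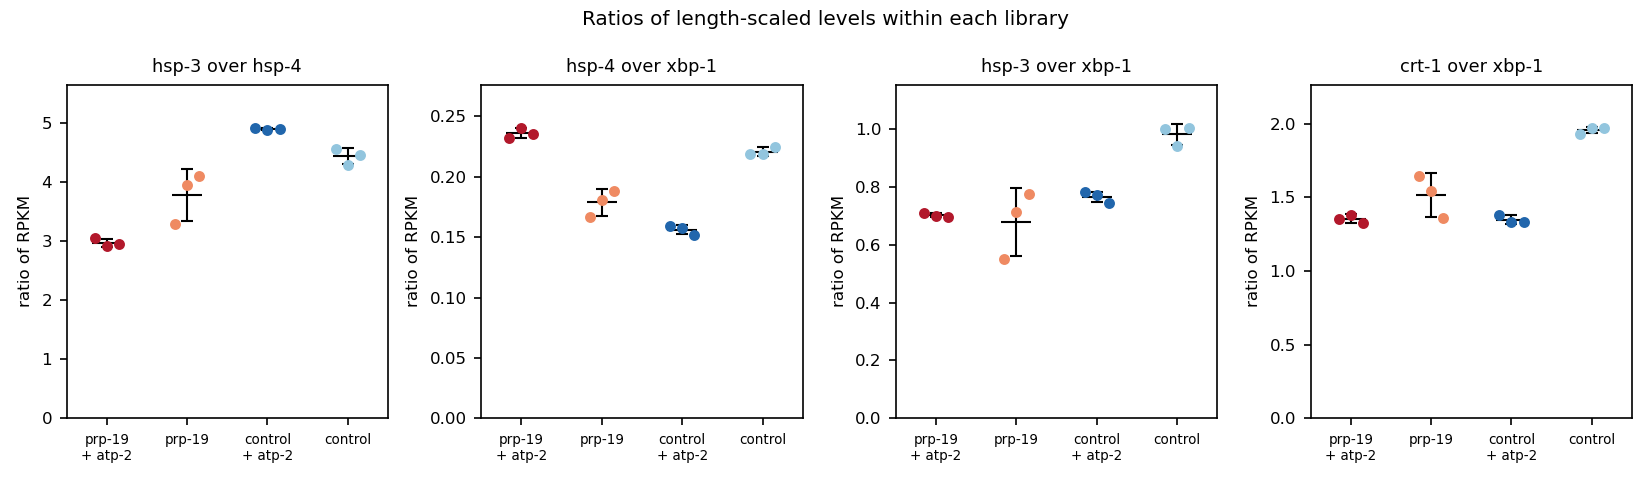
Ratios of RPKM within each library (vertical axes, no unit, from 0) for hsp-3 over hsp-4 and for hsp-4, hsp-3 and crt-1 over xbp-1; each dot is a library, lines are means and bars 1 SD over 3 libraries. The ratio of hsp-3 to hsp-4 is lowest in prp-19-labelled/atp-2 worms (2.92 to 3.05) and highest in control/atp-2 worms (4.89 to 4.92). Ratios that include hsp-4 are descriptions, since it was chosen for its opposite atp-2 responses.

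Other genes of the ER were taken from 5 lists of 92 symbols, of which 80 were found. These were 79 genes, since ergi-3 and erv-46 named the same gene, and all 79 were tested. After atp-2 RNAi under the prp-19 label 0 of the 79 were higher and 1 was lower (hrdl-1, a ubiquitin ligase gene, at -0.31, edgeR adjusted p = 0.0127), where 9.77% of all genes were called. Under control RNAi 8 were higher and 19 lower, together 34.2%, beside 34.1% of all genes; with library totals 25 were higher and 5 lower. The interaction was called for 15, or 19%, beside 19.3% of all genes, with 12 positive and 3 negative, a split that library totals turned to 4 positive and 21 negative. Across the prp-19 label 9 were higher and 45 lower without atp-2 RNAi (38 and 6 with library totals), and 13 higher and 31 lower with it (22 and 17). With TMM these were 68.4% and 55.7% of the 79, beside 58.5% and 53.0% of all genes. Of all genes 28.5% and 26.5% were called lower. With library totals 69.8% and 51.4% of all genes were called. No gene of the lists had opposite calls in both settings. Of the lists, translocation into the ER and N-glycosylation held 8 lower and 0 higher genes among 19 tested after atp-2 RNAi under control RNAi, and 7 positive and 0 negative interactions; with library totals it held 2 lower and 5 higher genes, and 0 positive and 4 negative interactions. Among 17 folding enzymes and co-chaperones, 4 interactions were positive and 1 negative (uggt-2, a homolog of the glycoprotein glucosyltransferase of ER quality control, at -2.05, edgeR adjusted p = 0.0425, with a mean under 5 CPM), and among 12 COPII export genes 0 were called. Among 19 degradation genes 0 were positive and 1 negative, and among 12 signalling genes 1 was positive and 1 negative.

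The protein disulfide isomerase pdi-6 had the largest positive interaction of the lists, 1.01 (SE 0.0950, edgeR adjusted p = 4.81e-07), close to that of hsp-4. Its level was 175, 187 and 179 CPM in prp-19-labelled/atp-2 worms, against 182, 177 and 175 CPM in prp-19-labelled worms. It was 158, 166 and 157 CPM in control/atp-2 worms, against 322, 303 and 332 CPM in control worms. Control worms alone were high, and the value of pdi-6 under the prp-19 label was 0.02, so it resembled enpl-1 and crt-1 in its makeup and not hsp-4. pdi-2, a disulfide isomerase as well, fell by 0.75 under control RNAi, and its interaction was 0.62 (edgeR adjusted p = 0.000272). T14G8.3 had an interaction of 0.67 (edgeR adjusted p = 0.000112) and came nearest to opposite calls, with 0.23 under the prp-19 label (edgeR adjusted p = 0.0514) and -0.44 under control RNAi. Without prp-19-labelled replicate 3 the first of these was called too (0.26, edgeR adjusted p = 0.0120), in a fit where 22% of all genes were called.

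Among genes that bring proteins into the ER and glycosylate them, trap-1, a subunit of the translocon-associated complex, had an interaction of 0.49 (edgeR adjusted p = 0.0013). The oligosaccharyltransferase subunit genes ostd-1 and dad-1 had 0.48 (edgeR adjusted p = 0.00434) and 0.42 (edgeR adjusted p = 0.0184). With library totals these 3 interactions were 0.14, 0.12 and 0.08 and none was called. The call for dad-1 was also not made without control replicate 3 or without replicate 1 of control/atp-2 worms (edgeR adjusted p = 0.0554 and 0.0586). ufd-1, which helps to extract degradation substrates, was the single degradation gene called, at -0.41 (edgeR adjusted p = 0.0178), and lost its call with DESeq2 (adjusted p = 0.0505) and without replicate 1 of control/atp-2, prp-19-labelled or prp-19-labelled/atp-2 worms (edgeR adjusted p = 0.0546, 0.0505 and 0.0555).

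Downstream of pek-1, atf-4 encodes a transcription factor whose translation rises when eIF2alpha is phosphorylated. It was at 69.4 ± 1.48 CPM in prp-19-labelled/atp-2 worms, against 68.4 ± 5.27 CPM in prp-19-labelled worms, and at 103 ± 3.53 CPM in control/atp-2 worms, against 152 ± 5.95 CPM in control worms (SD, n = 3 each). Its interaction was 0.58 (edgeR adjusted p = 0.000532), and 0.24 with library totals (edgeR adjusted p = 0.119). eif-2A, a translation initiation factor gene, went the other way, with an interaction of -0.62 (edgeR adjusted p = 0.000128) and 162 ± 4.28 CPM in prp-19-labelled/atp-2 worms, against 167 ± 4.82 CPM in prp-19-labelled worms, and 126 ± 1.66 CPM in control/atp-2 worms, against 84.8 ± 3.71 CPM in control worms. As with enpl-1 and crt-1, both genes differed between the control groups and lay within 0.05 of 0 under the prp-19 label.

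**Figure D5:**
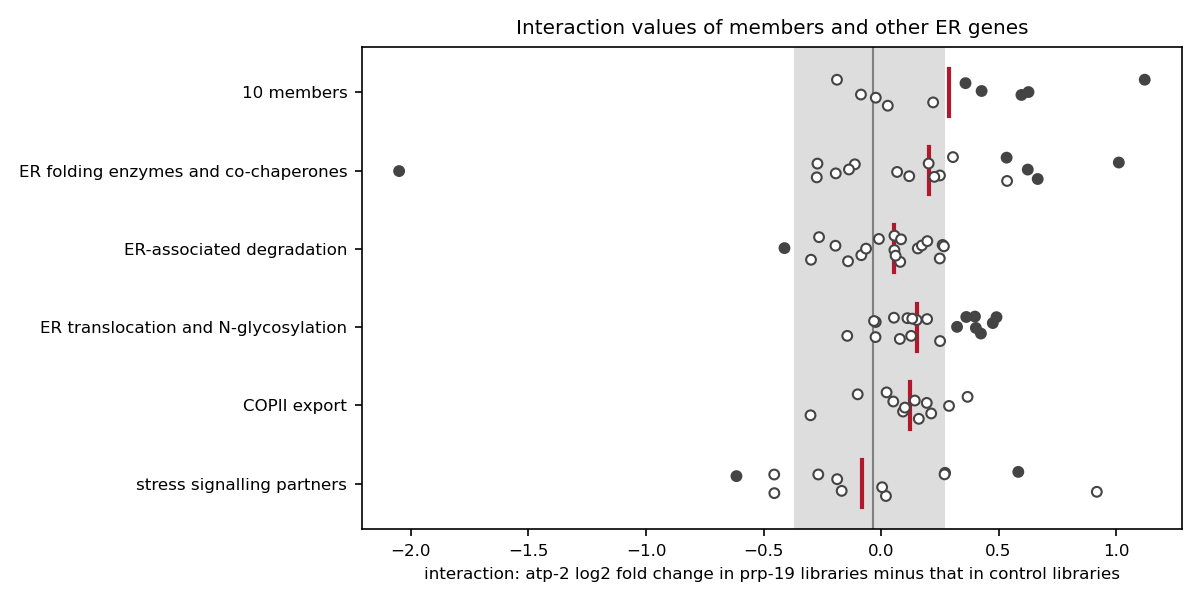
Interaction values (horizontal axis, atp-2 log2 fold change under the prp-19 label minus that under control RNAi) of the 10 members and of 5 lists of other ER genes; each dot is a gene, filled where the adjusted p is under 0.05, and red lines are medians. The grey line and band are the median (-0.03) and the interquartile range of all 12850 genes. The members' median lies at 0.29 (0.22 without hsp-4, which was chosen for its atp-2 responses). hsp-4 at 1.12 lies farthest right, and pdi-6 at 1.01 is the nearest list gene.

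The genes whose profiles were most like that of hsp-4 were found by Pearson correlation of log2 CPM over the 12 libraries, among the 9287 genes whose mean was 5 CPM or more. They were F25B4.5 (r = 0.983), aat-4 (0.970), usp-3 (0.965), pgp-5 (0.961) and M28.8 (0.960). By Spearman correlation they ranked 7, 16, 29, 1 and 11 in this order. All points share the same libraries and groups, and these are descriptions. None is a member or a gene of the lists. pgp-5 had 91.5 ± 1.24 CPM in prp-19-labelled/atp-2 worms, against 32.5 ± 1.98 CPM in prp-19-labelled worms, and 23.04 ± 0.320 CPM in control/atp-2 worms, against 45.3 ± 0.869 CPM in control worms (SD, n = 3 each). Of the members, xbp-1 was most like hsp-4 (r = 0.842), followed by crt-1 (0.619) and hsp-3 (0.585), and ire-1 was least like it (-0.711). Among the 9287 genes xbp-1 ranked 84, crt-1 828 and hsp-3 1027 by Pearson correlation.

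Markers of tissues were read in the same libraries, since ER chaperones are abundant in secretory cells. Of 6 intestinal markers found, 3 had a positive and 0 a negative called interaction, beside 10.1% and 9.14% of all genes. Their median was 0.44, beside 0.22 for the 9 members other than hsp-4. Their summed level was 5025 to 5152 CPM in prp-19-labelled/atp-2 worms, 3510 to 5552 CPM in prp-19-labelled worms, 5242 to 5355 CPM in control/atp-2 worms and 5603 to 6631 CPM in control worms, and none was at 0 in any library. Most of this sum was asp-1, which had 2220 to 4041 CPM in prp-19-labelled worms. Under control RNAi 2 of the 6 intestinal markers were lower and 0 higher after atp-2 RNAi, where 17.1% of all genes were called lower. Under the prp-19 label 2 were higher and 0 lower, where 5.06% of all genes were called higher. Their part in the chaperone results was not tested. Germline and oocyte markers summed to 154 to 171, 173 to 197, 75.4 to 77.9 and 53.2 to 63.9 CPM in the same order of groups, most of it glh-1. Of 9 tested, 7 were higher in prp-19-labelled worms than in control worms without atp-2 RNAi, where 58.5% of all genes were called and 30.0% called higher. Interactions were called positive for 0 and negative for 2 of the 9, with a median of -0.69. The part of these markers was not tested either. Of 6 sperm markers, msp-3, msp-19 and msp-142 were at 0 in all 12 libraries, and the list summed to 3.43 to 4.95, 4.40 to 7.29, 2.18 to 3.80 and 0.888 to 2.23 CPM. The 2 that could be tested were called higher in prp-19-labelled than in control worms: spe-11 averaged 1.38 ± 0.289 CPM in prp-19-labelled worms, against 0.118 ± 0.204 CPM in control worms, and fog-1 averaged 3.999 ± 1.39 CPM, against 1.63 ± 0.683 CPM (SD, n = 3 each). Hypodermal markers summed to 2504 to 2584, 2012 to 2412, 2829 to 3001 and 1491 to 1664 CPM, nearly all of it col-19. Of 5 tested, 0 had a positive and 1 a negative called interaction, with a median of -0.67. Body wall muscle markers summed to 6477 to 8681, 6131 to 7468, 6960 to 8528 and 4455 to 8050.4 CPM, and neuronal markers to 285 to 287, 263 to 345, 278 to 287 and 269 to 271 CPM; for both lists 0 of 6 were called for the interaction.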

How the data were processed

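Whole glp-4(bn2) worms were sequenced as polyA RNA in 12 libraries, 3 in each of 4 groups named by the sample titles. The authors deposited the raw counts of 45132 genes in one table; it held 0 columns of other samples. The submitters' processing notes name FastQC, STAR 2.7.5c, HISAT2 2.1.0, R 4.0.5 and DESeq2 with the builds ce11 and WBcel235. The counting program, annotation, strand handling and multi-mapping rule are each not given in the sources used here. Coordinates and exon lengths come from the Ensembl annotation of WBcel235.

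The members, the lists of ER genes and the markers were chosen with earlier results of these data known. Counts were fitted with edgeR 4.0.16 (R 4.3.3): filterByExpr by group, TMM factors (0.782 to 1.26), a robust quasi-likelihood fit of all 12 libraries (8 residual degrees of freedom), 5 contrasts, and Benjamini-Hochberg adjustment over 12850 genes, with calls under 0.05. The SE is the absolute log2 change over the square root of F, and intervals are 95%. Correlations used log2 CPM with a prior count of 2. Replicates of a group differed by a chi-square per degree of freedom of 1.44 to 43.0 over genes reaching 10 reads summed over both, so none was merged. The fit was tested on simulated data. Alternatives were RLE factors, library totals with and without vitellogenins, DESeq2 1.42.0, no low-count filter, a replicate block, the 6 libraries of a comparison alone, and each library left out. Beside prp-19, atp-2 and all members, named genes were, per list, the 3 called genes of at least 5 CPM with the largest absolute interaction, and the 5 genes most correlated with hsp-4. hrdl-1, uggt-2, smut-1 and single markers were named after their values were seen. Promoter motifs were not analysed here.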

Additional observations from a re-analysis of the deposited data

Results flagged for a closer look

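Genes are listed here because their response to atp-2 RNAi differed between the prp-19 label and control RNAi, by the interaction test of edgeR over all genes. Of the members these were hsp-4 at 1.12, hsp-3 at 0.63, crt-1 at 0.60, dnj-7 at 0.43 and enpl-1 at 0.36. Of the other ER genes named they were pdi-6 at 1.01, T14G8.3 at 0.67, pdi-2 at 0.62, atf-4 at 0.58, trap-1 at 0.49, ostd-1 at 0.48, dad-1 at 0.42, ufd-1 at -0.41 and eif-2A at -0.62. For hsp-4 the difference was known when the members were chosen, so its value is a description. A positive value means a less negative or more positive response under the prp-19 label, where the atp-2 mRNA also fell less (-1.01, against -2.60 under control RNAi); the part of that unequal knockdown in these values was not tested.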

How the results depend on the processing

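Of the named genes' log2 values under the alternatives, 1634 kept their sign and side of the threshold, 61 lost a call, 41 gained one, 10 turned with a call in either fit, and 40 turned with a call in neither. With library totals, the prp-19 contrast without atp-2 RNAi turned to 0.0774 for hsp-3, 0.31 for hsp-4, 0.32 for ire-1, 0.19 for pek-1, 0.14 for enpl-1, 0.26 for crt-1, 0.0674 for pdi-2, 0.13 for trap-1 and 0.0422 for ostd-1. With totals that leave out the vitellogenins, only crt-1 turned there with a call in either fit, to 0.0465. Turns called in neither fit are not listed by gene. Library totals called 3 members for atp-2 RNAi under control RNAi, where 41.9% of all genes were called. For the interaction they called 2 members with a positive and 2 with a negative value, and 25 ER list genes, beside 31.2% of all genes. Totals without vitellogenins called 3 members for the prp-19 contrast without atp-2 RNAi, 2 higher and 1 lower, against 0 higher and 5 lower with TMM. They called 3 members for the interaction, all 3 positive, and 2 list genes for atp-2 RNAi under the prp-19 label. Over all genes these totals called 63.3%, 21% and 9.98% in the same order. No filter on low counts also gave 2 list genes for atp-2 RNAi under the prp-19 label, beside 6.47% of all genes. The 6 libraries alone gave 0 list genes there (1 in the fit of all), beside 4.38% of all genes. They gave 3 members for the prp-19 contrast without atp-2 RNAi, beside 54.4% of all genes. Leaving out each library in turn gave 1 to 3 members and 0 to 11 list genes for atp-2 RNAi under the prp-19 label. It gave 10 to 24 list genes for the interaction, and 1 to 2 members with opposite responses. The upper ends all came without prp-19-labelled replicate 3. Calls over all genes were then 22% for atp-2 RNAi under the prp-19 label and 27.3% for the interaction, against 9.77% and 19.3% with all libraries. A replicate block called 5, 1, 5, 8 and 5 members in the 5 contrasts, adding hsp-3 for the prp-19 contrast with atp-2 RNAi (0.24, edgeR adjusted p = 0.0496). Over all genes this block called 33.3%, 8.86%, 58%, 52.4% and 17.9% in the same order. Same-numbered libraries did not deviate together (r from -0.11 to 0.12 over 18 pairs), so the numbers were not taken as pairs.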
